A study of Saccharomyces cerevisiae with 8 samples.

Results

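The G2/M genes described here are 9 listed genes of mitotic entry and late mitosis in Saccharomyces cerevisiae, chosen by name: CLB1, CLB2, CDC20, CDC5, SWI5, BUD4, KIN3, ALK1 and HST3. They are 9 of 6002 nuclear protein-coding genes. For each gene, nucleosomes were read from 800 bp upstream of the coding sequence to its end. These windows held 166 of the 72854 consensus nucleosomes obtained by pooling all libraries.

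In budding yeast, many genes of this kind are switched on together late in the cell cycle by the MADS-box protein Mcm1, the forkhead protein Fkh2 and the coactivator Ndd1, which bind their promoters. The mitotic cyclins they encode activate the kinase Cdc28, and the anaphase-promoting complex later destroys those cyclins so that the cell can leave mitosis. Transcription of this cluster is low in G1, the phase to which the study's title assigns the cells. Nucleosomes usually line up from the first one of a gene, called +1, next to a nucleosome-depleted region that separates it from the -1 nucleosome of the promoter.

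Chromatin was digested with micrococcal nuclease (MNase), which spares DNA wrapped on nucleosomes, in semi-intact cells of 8 samples, 1 library each. All groups shared the PPY1 background (MATa his3Δ0 leu2Δ0 met15Δ0 ura3Δ0 bar1::leu2), YPD medium and G1 synchronisation. The 4 untreated and the 4 treated libraries each covered strain labels 1 to 4, and the treated cells had received 1,10-phenanthroline at 100 µg/ml for 30 min at 30 °C. Phenanthroline is a metal chelator that blocks transcription in yeast, and the treatment addressed how transcription bears on nucleosome order. Each strain label names an 81 bp insert in a pair of genes: CKB2 and DGK1 in strain 1, PPT1 and SLM3 in strain 2, TRP4 and PAN5 in strain 3, and UBX5 and BSP1 in strain 4. How cells were synchronised, and whether libraries of a group came from separate cultures, is not stated in the labels, so p-values measure only the spread between these libraries.

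The libraries did not match their strain labels at the inserts. A coordinate step of 78.5 to 83 bp, close to the insert length, appeared in 16 of 64 pairs of library and site, and 0 of these lay in the strain whose label names that site. In both treatments, label 2 held the steps at CKB2 and DGK1, and label 3 those at PPT1 and SLM3. Label 4 held those at TRP4 and PAN5, and label 1 those at UBX5 and BSP1. Among the 9 genes, SWI5 alone lies beyond a site at which libraries held a step, and 81 bp were subtracted there in both libraries labelled strain 3. Across the genome each library held 72649 to 75086 calls. Merged calls, wider than the standard span of a single call, made up 7.13% to 7.59% of calls in untreated and 8.32% to 8.61% in treated libraries. In the windows of the 9 genes there were 5, 16, 10 and 7 merged calls in untreated strains 1 to 4 and 14, 19, 18 and 11 in treated ones. The library labelled strain 2 had the lowest mean score over the genes' nucleosomes in both groups, 0.691 untreated and 0.683 treated, while the other libraries ranged from 0.704 to 0.731. Below, values of 4 libraries follow the order of strain labels 1 to 4.

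Most nucleosomes of these genes were called with and without the drug. Of the 166 nucleosomes, 144 (86.7%) were called in all 8 libraries, beside 82.6% of all consensus nucleosomes, 14 in 4 to 7 libraries and 8 in fewer than 4. None was called in all 4 libraries of a treatment and in at most 1 of the other. The nucleosome at 978 bp in CLB1 was called in 3 untreated and 0 treated libraries, with scores of 0.201 to 0.253. Over all consensus nucleosomes, 0.546% were gained and 0.412% lost by that rule.

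**Figure D1:**
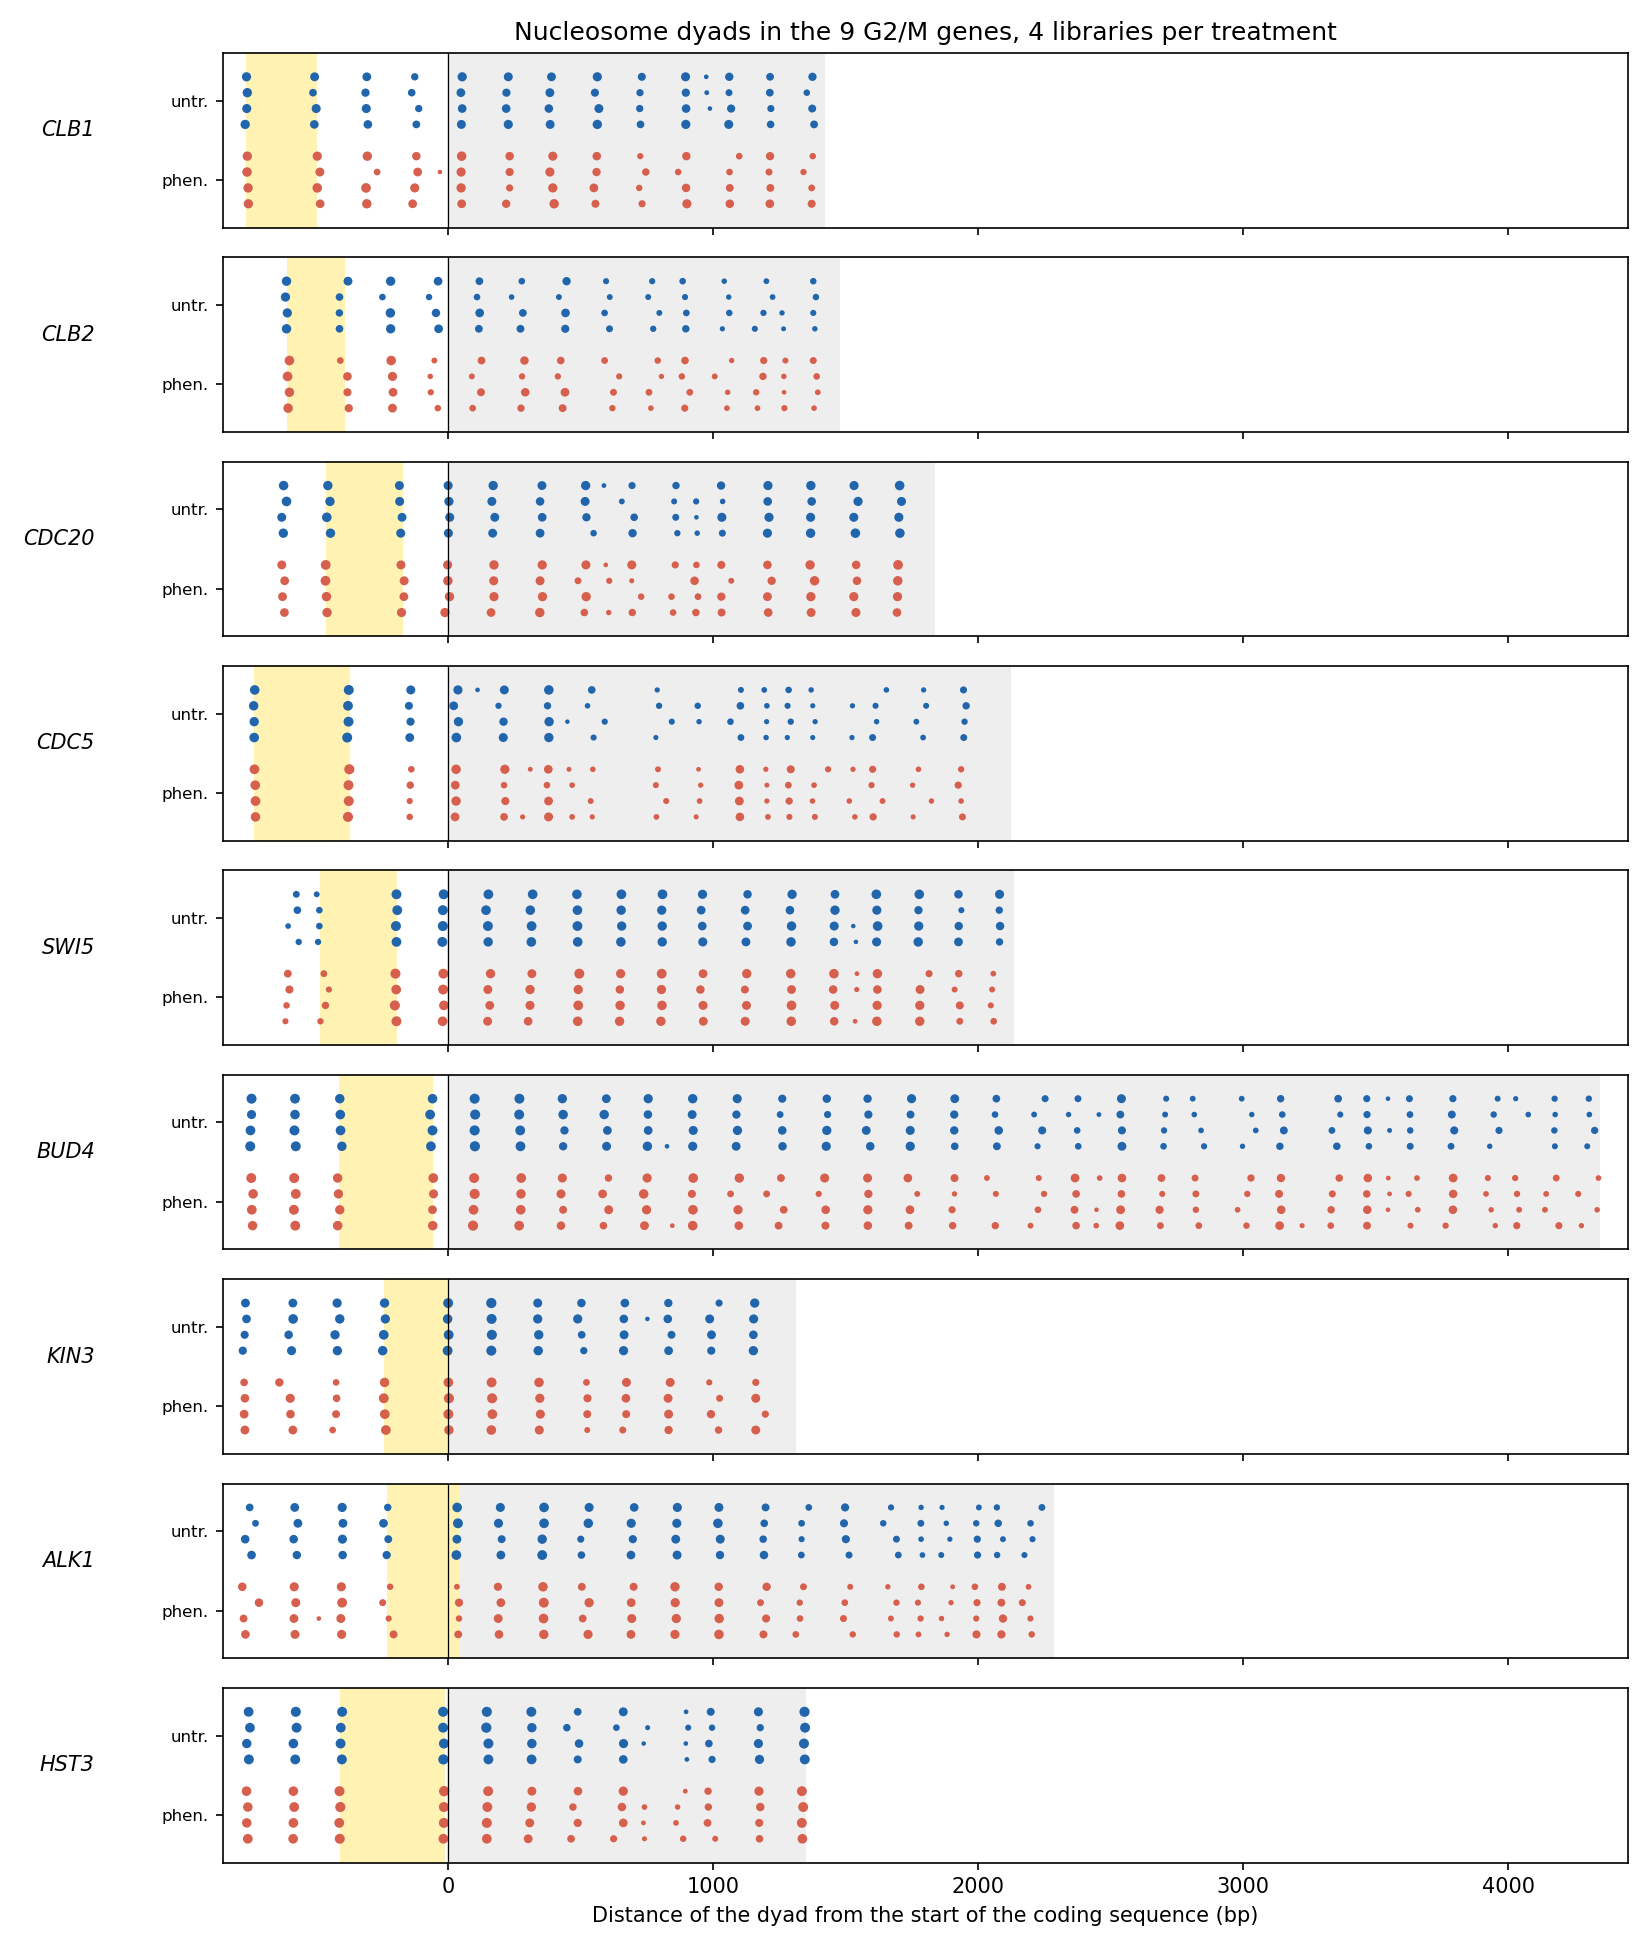
Dyads of every assigned call in the 9 genes, by distance from the coding start (bp, x axis), with the 4 untreated libraries above (blue) and the 4 phenanthroline libraries below (red), strain labels 1 to 4 from top to bottom; larger points have higher scores. Grey marks the coding sequence and yellow the widest gap from 800 bp upstream. Of the 166 nucleosomes, 144 were called in all 8 libraries. A dyad shift was called in 1 of these 144 (0.694%), beside 1.28% of all nucleosomes tested.

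Changes in score were few and went both ways. The deposited score runs from 0 to 1 and rises with the height of a call and with how tightly its fragments are placed. Of the 144 nucleosomes, 4 rose and 6 fell (limma over all consensus nucleosomes, adjusted p below 0.05), which is 6.94% of them. Over all 60146 nucleosomes tested, 8.38% changed, 2.87% higher and 5.51% lower, so the share in these genes is close to the background. The median score difference was -0.0045 in the genes and -0.0067 overall. With scores centred on each library's median, 8 rose and 5 fell in the genes, and 5024 of the 60146 changed. Of all changed nucleosomes, 56.5% instead of 34.3% were then higher. The fit with strain label as a block called 8 of the 144, beside 3898 of the 60146. The count in the genes was 0 without strain label 1, 9 without label 2, 1 without label 3 and 1 without label 4. Over all nucleosomes it was 696, 3735, 2693 and 1502 in that order. At the 10 changed nucleosomes, merged calls numbered 0 or 1 of 4 in each group, except for 2 treated calls at 3632 bp in BUD4 and 4 at 2067 bp in SWI5.

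**Figure D2:**
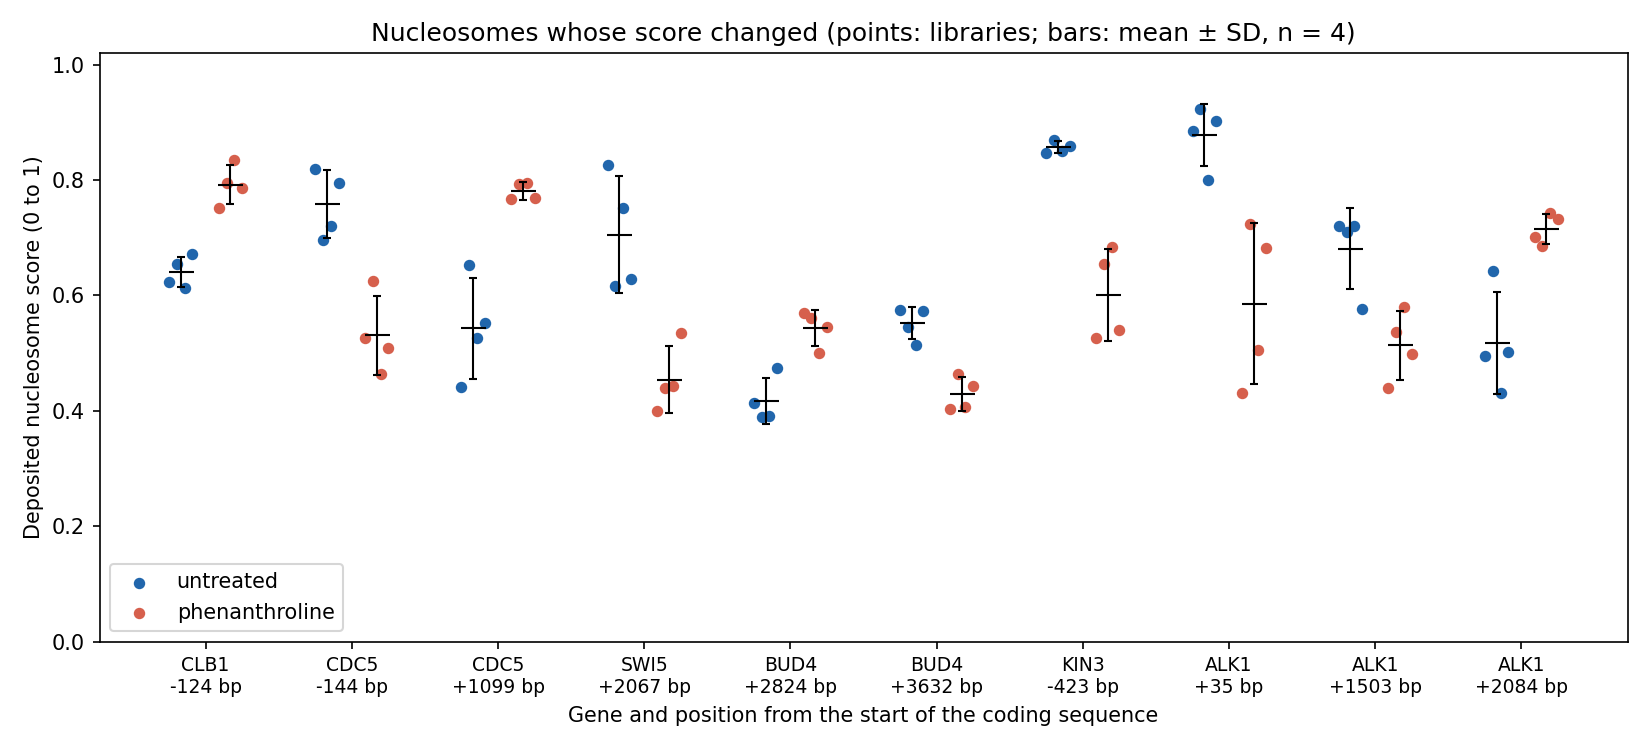
Deposited score (0 to 1, y axis) of the 10 nucleosomes that changed, named by gene and distance from the coding start, in each untreated (blue) and phenanthroline (red) library, with mean ± SD (n = 4). Treated and untreated points overlap only at the ALK1 nucleosome at 1503 bp, where the lowest untreated value is 0.576 and the highest treated value 0.579.

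CLB1 (YGR108W, chromosome VII, 703636 to 705051, sacCer3) and CLB2 (YPR119W, chromosome XVI, 771653 to 773128) encode the B-type cyclins that drive mitosis with Cdc28. From -1 to +1 they measured 184.1 bp ± 9.94 and 163.5 bp ± 12.9 untreated, at the 14.5 and 2.39 percentile of genes, and 173.8 bp ± 14.9 and 164 bp ± 25.5 treated. In both genes the widest gap lay further upstream, from -760 to -498 bp at CLB1 and from -607 to -395 bp at CLB2. That gap was 257 bp ± 6.38 (SD, n = 4) at CLB1 untreated and 268 bp ± 6.40 treated. At CLB2 it was 208 bp ± 16.2 and 217 bp ± 16.9, and in neither gene did it pass the test.

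The nucleosome just upstream of CLB1, centred at -124 bp in intergenic DNA, rose in score. It had 0.624, 0.654, 0.613 and 0.671 in untreated libraries and 0.752, 0.794, 0.834 and 0.786 in treated ones. All 4 treated libraries lay above all untreated ones, a rise of 0.15 ± 0.0251 (SE; limma adjusted p = 0.0122, and 0.0404 with the strain block). The nucleosome nearest the start of CLB2, at -52 bp, scored 0.787, 0.496, 0.750 and 0.784 untreated and 0.433, 0.368, 0.476 and 0.516 treated. The untreated library of strain label 2 lay among the treated ones, and the difference of -0.26 ± 0.067 missed the threshold in limma (adjusted p = 0.0528) and passed it with the block (0.0323). Merged calls at this place numbered 1 untreated and 2 treated. The dyads of these nucleosomes stayed within their spread, with means of -125 bp in both treatments at CLB1 and of -49 and -57 bp at CLB2.

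Inside the genes the cyclins differed from each other. The mean score of all calls in the CLB1 coding sequence was 0.633 ± 0.0168 untreated and 0.656 ± 0.0462 treated. Its nucleosomes called in all 8 libraries went the other way. They averaged 0.799 untreated and 0.784 treated in the upstream portion of the gene, and 0.691 and 0.630 in the downstream portion. The mean over all calls in CLB2 was 0.483 ± 0.0496 untreated and 0.502 ± 0.0382 treated. The untreated value of CLB2 stood at the 2.18 percentile of all genes tested, against 32 for CLB1. Dyads in CLB2 also scattered more between libraries, with a median SD of 12.8 bp untreated over 9 nucleosomes, beside 4.08 bp in CLB1 and 5.45 bp over all consensus nucleosomes. Of the calls in CLB2 only 1, 1, 2 and 3 of 12, 11, 12 and 10 were in the authors' well-positioned class in untreated libraries, and 2, 1, 1 and 0 of 11, 11, 12 and 12 in treated ones.

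CDC20 (YGL116W, chromosome VII, 289809 to 291641) encodes the activator that lets the anaphase-promoting complex start anaphase. Its -1 and +1, as placed by a window at the coding start, moved closer together. Their untreated distance stood at the 13.5 percentile of genes, and the widest gap of the promoter lay elsewhere. The distance from -1, at -177 bp, to +1, at -1 bp, was 184, 186, 180 and 180 bp untreated and 176, 165, 172 and 164 bp treated. Every treated value was below every untreated one, and the mean fell by 13.25 bp ± 3.31 (SE) from 182.5 to 169.2 bp (limma adjusted p = 0.0294, 0.065 with the strain block). Over all genes the distance from -1 to +1 became narrower in 2.11% and wider in 23.9%. In 74.0% of 5772 genes that pair also flanked the widest gap from 800 bp upstream, which it did not in CDC20. One gap further upstream, between the nucleosomes at -457 and -177 bp, the direction was the opposite. That gap, the widest of the promoter, measured 270, 263, 284 and 265 bp untreated and 284, 297, 292 and 281 bp treated. Its mean rose by 18 bp ± 5.50 (adjusted p = 0.0437, 0.0665 with the block), and the highest untreated value lay within the treated range. These 2 gaps share the nucleosome at -177 bp, whose dyad averaged -181 bp untreated and -173 bp treated, a difference that did not pass the test (adjusted p = 0.249).

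None of the 13 CDC20 nucleosomes called in all 8 libraries, of 16 in its window, passed the score test. The nucleosome at 936 bp was not tested, since the untreated library of strain label 1 had no call there. It scored 0.478, 0.206 and 0.369 in the other untreated libraries and 0.522, 0.767, 0.549 and 0.640 treated, without overlap. This nucleosome was chosen after its values were seen. The nucleosome next to it, at 854 bp, had no call in the treated library of strain label 2. That neighbour averaged 0.537 untreated and 0.5475 treated. The -1 scored 0.814 in both treatments and the +1 0.826 ± 0.00951 untreated and 0.855 ± 0.0163 treated. Among nucleosomes of the gene called in all 8 libraries, untreated scores were lowest at 695 bp (0.604) and highest at 1700 bp (0.854), and the downstream portion of the array scored higher (0.797) than the upstream portion (0.736). The other 8 genes had the order reversed, as did 86.9% of 2634 genes with at least 8 nucleosomes called in every library. The median distance between neighbouring dyads in CDC20 was 165.5, 163, 167 and 168 bp untreated and 128, 152.5, 114.5 and 97 bp treated. The groups did not overlap, as at 11.7% of all genes in that direction, and the number of calls in the gene was 11, 13, 12 and 12 untreated and 13, 12, 14 and 14 treated. The treated distances of 128, 114.5 and 97 bp were shorter than the standard span of a single call, so neighbouring calls overlapped each other there. Weak calls entered as well: the position at 598 bp was called in 1 untreated and 3 treated libraries, with scores of 0.216 to 0.470. Whether nucleosomes lay closer together in treated cells was not tested.

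CDC5 (YMR001C, chromosome XIII, 269019 to 271136) encodes the polo kinase of yeast, which acts in anaphase and mitotic exit. Upstream of its -1 lay the widest such gap of the 9 genes, 354.5 bp ± 2.38 untreated and 352.8 bp ± 3.78 treated between -731 and -377 bp. The -1 nucleosome at -377 bp, inside the annotated gene YMR001C-A, scored 0.925 ± 0.0123 and 0.935 ± 0.00656. Next to it the +1, at -144 bp in intergenic DNA, lost score. It had 0.820, 0.697, 0.721 and 0.795 untreated and 0.526, 0.625, 0.464 and 0.508 treated. The groups did not overlap, and the fall was -0.23 ± 0.0416 (limma adjusted p = 0.0172, 0.0441 with the block), while the dyad averaged -145 and -144 bp. The -1 to +1 distance was 233.5 bp ± 2.52 and 232.5 bp ± 1.73 and did not pass the test.

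The nucleosome at 1099 bp in CDC5 moved the other way. Its score was 0.441, 0.653, 0.527 and 0.552 untreated and 0.767, 0.793, 0.795 and 0.768 treated, with no overlap (difference 0.24 ± 0.0411, limma adjusted p = 0.0144, 0.0306 with the block). It stood in a gene whose mean score over all calls was low, although the nucleosomes at 29 and 377 bp had 0.840 and 0.804 untreated. The body score of CDC5 was 0.486 ± 0.023 untreated and 0.483 ± 0.0155 treated, the 2.59 percentile of genes untreated, and the score fell from 0.660 in the upstream portion to 0.429 in the downstream portion. Of its nucleosomes called in all 8 libraries, the one at 1377 bp was lowest, with 0.330 untreated.

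**Figure D3:**
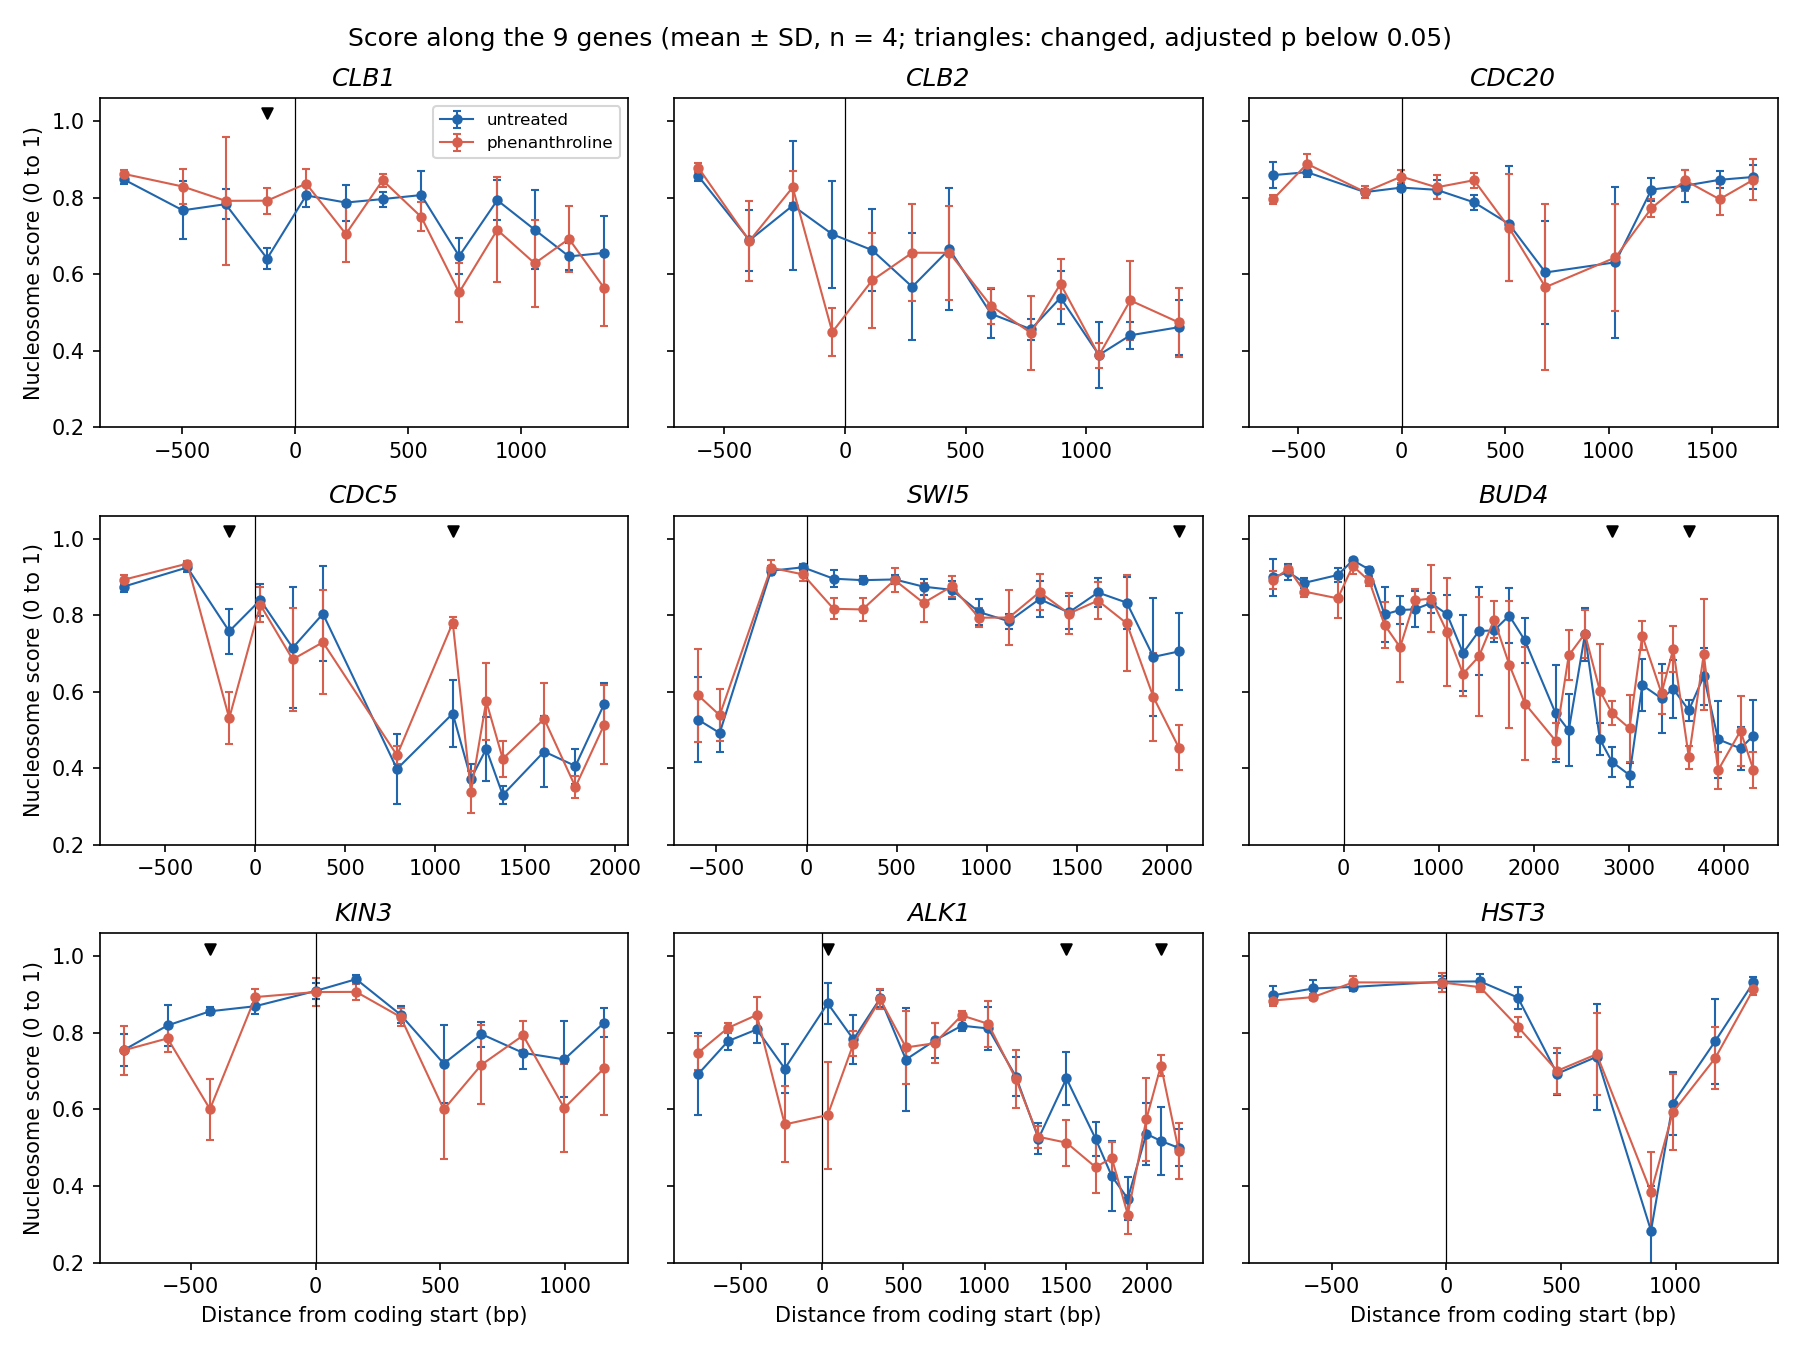
Mean score ± SD (n = 4, y axis, 0 to 1) of nucleosomes called in all 8 libraries, by distance from the coding start (bp), in untreated (blue) and phenanthroline (red) libraries, 1 panel a gene. Triangles mark the 10 changed nucleosomes, and CLB2 and CDC5 fall to means of 0.457 and 0.429 in the downstream portion of the array when untreated.

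SWI5 (YDR146C, chromosome IV, 748613 to 750742) encodes a zinc-finger activator that turns on genes at the transition from mitosis to G1. It had the highest untreated body score of the 9 genes, 0.759 ± 0.0479 at the 71.2 percentile, and its dyads had a median SD of 2.16 bp between untreated libraries. The treated body score was 0.710 ± 0.0146, a difference that did not pass the test (limma adjusted p = 0.220). The -1 at -197 bp and the +1 at -20 bp scored 0.916 and 0.925 untreated and 0.924 and 0.907 treated. The share of its calls classed as well positioned was 92.9%, 84.6%, 76.5% and 80.0% untreated and 66.7%, 71.4%, 73.3% and 68.8% treated. All treated values lay below all untreated ones, as at 6.09% of all genes.

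The last nucleosome of SWI5, centred at 2067 bp, gave the 1 dyad shift called among the 144 nucleosomes (0.694%), beside 1.28% of all nucleosomes tested. Its dyad lay at 2080, 2079, 2082 and 2080 bp untreated and at 2056.5, 2052, 2047 and 2058 bp treated. The groups were far apart, and the mean moved by -26.88 bp ± 2.73 (SE), toward the start of the gene (limma adjusted p = 0.00945, 0.0866 with the strain block). All 4 treated calls at this place were merged calls and 0 untreated ones were. The part of merging in the shift was not tested. The score of the same nucleosome was 0.826, 0.617, 0.752 and 0.628 untreated and 0.399, 0.439, 0.443 and 0.536 treated, without overlap, a difference of -0.25 ± 0.052 (adjusted p = 0.0254, 0.0614 with the block). With calls below a score of 0.4 left out, this nucleosome was no longer called in all 8 libraries, and 0 shifts were called in the 9 genes. The number of shifts called in the genes was 0 without strain label 4 and 2 without label 3.

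The widest gap of the SWI5 promoter, between -482 and -197 bp, narrowed. It measured 301, 294, 289 and 296 bp untreated and 270, 254, 262 and 287 bp treated. The groups did not overlap, and the mean fell by 26.75 bp ± 6.75 (limma adjusted p = 0.0283, 0.0521 with the block). The nucleosome at -482 bp that bounds it was weakly positioned, as the profile of scores along the genes shows. The -1 to +1 distance was 175 bp ± 2.94 untreated and 179.2 bp ± 4.79 treated and did not pass the test.

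BUD4 (YJR092W, chromosome X, 598735 to 603078) encodes a bud-neck protein needed for axial bud-site selection, and with 4344 bp it is the longest of the 9 genes. It shares its upstream region with JSN1, which is transcribed away from it. Its depleted region, between -411 and -61 bp, was 350, 339, 347 and 336 bp wide untreated and 361, 359, 350 and 359 bp treated. All 4 strain labels gave a larger treated value, although 350 bp occurred in both groups, and the mean rose by 14.25 bp ± 3.98 (limma adjusted p = 0.0375, 0.077 with the block). Its -1 and +1 scored 0.885 and 0.905 untreated and 0.862 and 0.844 treated, below the threshold for a change.

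Scores in the BUD4 array were lower in its downstream portion, as in 86.9% of 2634 genes with at least 8 nucleosomes in every library. Untreated, the scores averaged 0.787 in the upstream and 0.534 in the downstream portion of BUD4. Among nucleosomes called in all 8 libraries, they were highest at 98 bp (0.944) and lowest at 3008 bp (0.382). At 3789 bp, further downstream, the untreated score was 0.641. Both changed nucleosomes lay in the downstream portion and went opposite ways. At 2824 bp the scores were 0.414, 0.389, 0.390 and 0.474 untreated and 0.569, 0.562, 0.500 and 0.545 treated, a rise of 0.13 ± 0.0274 (limma adjusted p = 0.0289, 0.0534 with the block). At 3632 bp they were 0.574, 0.546, 0.514 and 0.573 untreated and 0.402, 0.465, 0.406 and 0.444 treated, a fall of -0.12 ± 0.0245 (adjusted p = 0.0224, 0.0512 with the block). Neither pair of groups overlapped. The rise at 2824 bp was in the height component, and with the width component alone the difference was -0.000582. The body score was 0.626 ± 0.0363 untreated and 0.613 ± 0.0326 treated.

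KIN3 (YAR018C, chromosome I, 170396 to 171703) encodes a protein kinase related to NIMA, a mitotic kinase first described in Aspergillus. At its start the -1 lay at -241 bp and the +1 at 0 bp, with a distance of 241.2 bp in both treatments (SD 4.79 and 3.40). Change was seen further up, at the nucleosome at -423 bp between KIN3 and CDC15. It scored 0.847, 0.870, 0.850 and 0.859 untreated and 0.526, 0.654, 0.684 and 0.540 treated. The untreated values were tightly grouped and well above the treated ones, and the fall was -0.26 ± 0.0381 (limma adjusted p = 0.00828, 0.027 with the block), the smallest adjusted p of the 144. The body score, which takes every call in the gene, was 0.707 ± 0.0386 untreated and 0.741 ± 0.0286 treated. Nucleosomes of the gene called in all 8 libraries went the other way. They averaged 0.854 untreated and 0.814 treated in the upstream portion, and 0.776 and 0.706 in the downstream portion. In the gene, the dyad of the nucleosome at 514 bp averaged 501 bp untreated and 523.5 bp treated without overlap and missed the threshold (adjusted p = 0.0627). It was chosen after its values were seen, and the groups did not overlap at 18 of the 144 dyads.

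ALK1 (YGL021W, chromosome VII, 454785 to 457067) encodes a kinase related to haspin, which in animals phosphorylates histone H3 in mitosis. Its upstream neighbour STT3 ends at -225 bp, next to the -1 dyad at -229 bp. Measured from dyad to dyad, the depleted region ran from -229 to 35 bp. The +1 nucleosome, at 35 bp, had the largest score change of the 144 tested nucleosomes. It scored 0.886, 0.922, 0.800 and 0.901 untreated and 0.431, 0.723, 0.506 and 0.683 treated. The groups did not overlap, and the score fell by 0.29 ± 0.0654 (limma adjusted p = 0.033, 0.0334 with the block), while the dyad averaged 32.8 and 37.2 bp. The -1, inside STT3, scored 0.707 ± 0.0631 and 0.561 ± 0.0993 and did not pass the test (adjusted p = 0.127). Of its calls, 0 untreated and 2 treated ones were merged. The width was 266.2 bp ± 9.98 untreated and 262.4 bp ± 19.2 treated and did not pass the test either.

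Further into ALK1, 2 nucleosomes changed in opposite directions. At 1503 bp the score was 0.720, 0.709, 0.720 and 0.576 untreated and 0.439, 0.537, 0.579 and 0.498 treated, and the untreated library of strain label 4 lay within the treated range (difference -0.17 ± 0.0426, limma adjusted p = 0.0479, 0.059 with the block). At 2084 bp it was 0.495, 0.642, 0.432 and 0.503 untreated and 0.701, 0.685, 0.742 and 0.732 treated, without overlap (difference 0.20 ± 0.0427, adjusted p = 0.0295, 0.0636 with the block). The body score was 0.651 ± 0.0309 untreated and 0.622 ± 0.0296 treated.

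HST3 (YOR025W, chromosome XV, 378219 to 379562) encodes a sirtuin, an NAD-dependent deacetylase that removes acetyl groups from newly deposited histone H3. It had the widest depleted region of the 9, at the 93.5 percentile of genes, shared with the divergent gene AHC1. The width was 381, 386, 390 and 383 bp untreated and 395, 391, 395 and 391 bp treated. Every treated value was above every untreated one, and the difference of 8 bp ± 2.63 (SE) missed the threshold (limma adjusted p = 0.0559, 0.103 with the block). Over all genes tested the median change was 7 bp. The -1 at -407 bp and the +1 at -18 bp scored 0.920 and 0.934 untreated and 0.932 and 0.932 treated. Among nucleosomes of the gene called in all 8 libraries, the untreated score was lowest, 0.283, at 893 bp, and the body score was 0.678 ± 0.0533 untreated and 0.671 ± 0.0503 treated.

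**Figure D4:**
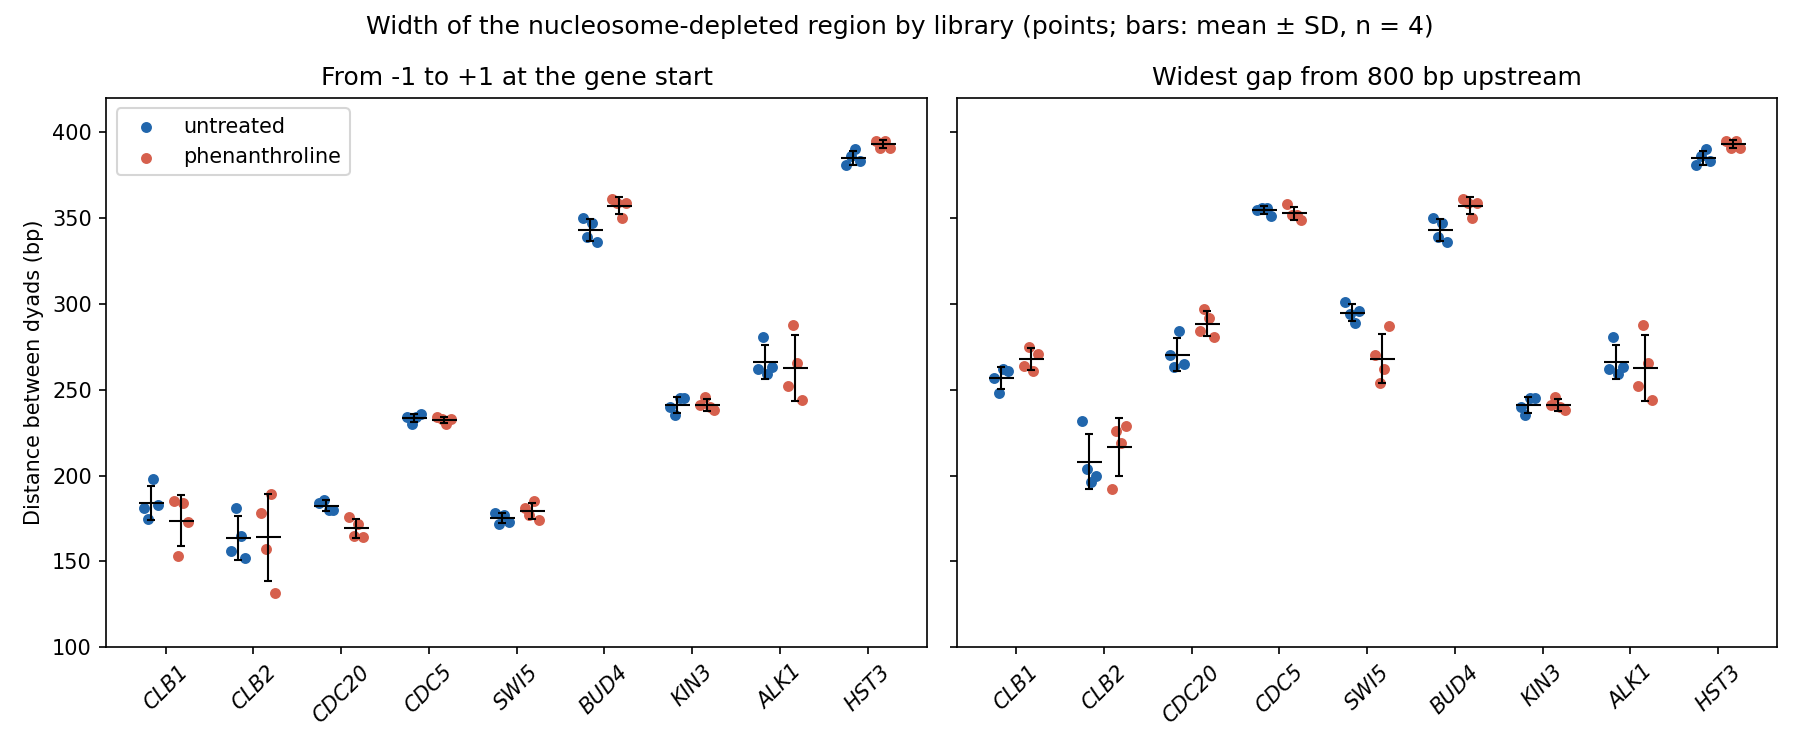
Distance between dyads (bp, y axis starting at 100) in each library of the 9 genes, untreated in blue and phenanthroline in red, with mean ± SD (n = 4): left, from -1 to +1 at the gene start, right, the widest gap from 800 bp upstream. In CLB1, CLB2, CDC20, CDC5 and SWI5 the right-hand gap is another one, and CDC20 falls by 13.25 bp on the left and rises by 18 bp on the right.

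From -1 to +1, the width rose in 1 and fell in 1 of the 9 genes. BUD4 rose and CDC20 fell, beside 26.0% of all 5263 genes tested, and the median change was 0 bp in the 9 genes and 7 bp over all. Whether the 9 genes differ from others in this was not tested. The count in the 9 genes was 0 with the strain block, 0 without strain label 1, 2 or 4, and 3 without label 3. Over all genes it was 36 with the block, 9, 170 and 28 without label 1, 2 or 4, and 1636 without label 3. For the widest gap from 800 bp upstream, a measure added after the data were seen, CDC20 and BUD4 rose and SWI5 fell, beside 28.6% of genes changed and 26.5% wider. With the block, 0 of these remained, beside 327 wider and 21 narrower of all 5293 genes tested. The median change of the widest gap was 8 bp in the 9 genes and 7.75 bp over all. In 5 of the 9 genes (55.6%) the widest gap was not that from -1 to +1, and it lay upstream of the -1. Among all genes, the widest gap was another one in 1500 of 5772 (26.0%), wherever it lay. Whether these shares differ was not tested.

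Gene-body scores did not pass the test in any of the 9 genes (limma, 0 at an adjusted p below 0.05 and 0 at an unadjusted p below 0.05, with the strain block also 0), beside 6.79% of all genes. Untreated levels ranged from 0.483 in CLB2 to 0.759 in SWI5. CLB2 and CDC5, at 0.483 and 0.486, did not differ beyond their spread, nor did BUD4, CLB1 and ALK1 between 0.626 and 0.651, nor KIN3 and CDC20 at 0.707 and 0.709.

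Other genes of the same programme were read from the same fits. Of 21 further genes of the CLB2 cluster and late mitosis, 6 became wider from -1 to +1 and 0 narrower (DBF2, DBF20, HOF1, CIN8, MMR1 and CDC6), with a median of 5.5 bp over the list. Over all genes tested, 23.9% became wider and 2.11% narrower, with a median of 7 bp, so these counts lie near the background. HOF1, a cytokinesis protein of the bud neck, went from 345 bp ± 18.5 to 396 bp ± 14.1 (limma adjusted p = 0.0195), and CIN8, a mitotic kinesin, from 289 bp ± 4.99 to 314 bp ± 6.70 (adjusted p = 0.0116). Of 11 regulators, MCM1 and MIH1 became wider (median of the list 8 bp), and of 8 mitotic-exit genes tested, CDC14 and CDC15 did (median 6.62 bp). Of 12 genes of the G1-to-S transition, which are active earlier in the cycle, CLN2 and PCL1 did (median 2.25 bp). With the strain block 0 widths were called in each of these lists, beside 34 wider and 2 narrower of all 5263 genes tested. Body scores changed in 0 genes of the 4 lists, and in 1 regulator, which fell, with the block.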

How the data were processed

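MNase-seq nucleosome calls of 8 libraries were used, 4 untreated and 4 treated. The authors called nucleosomes in each library with nucleR, per the file columns, on build sacCer3, per the submitters' processing notes, and deposited a score per call, which is the mean of a width and a height score and is relative within a library. Which aligner, filters and threshold they chose is not given in the sources used here. Library depth is unknown, so no counting interval is given. Members and lists were chosen with earlier results of these data known.

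Genes came from RefSeq R64 and span coding sequences. Insert offsets of 81 bp were subtracted where a library held a step. Dyads of all libraries were pooled and smoothed (Gaussian, SD 20 bp), maxima at least 80 bp apart became consensus nucleosomes, and calls within 60 bp were assigned to them. Among neighbouring nucleosomes whose downstream one fell at -150 to 200 bp from the coding start, the most widely spaced were taken as -1 and +1. This pair need not flank the widest gap of the promoter, and did not in 5 of the 9 genes. Nucleosomes called in all 8 libraries and genes with at least 3 calls in each were tested with limma 3.58.1 (R 4.3.3), treated minus untreated, with Benjamini-Hochberg adjustment over all features and a threshold of 0.05. Named nucleosomes are the -1, the +1, those past a threshold, and some others picked for their values. Calls and spacing per gene were described without a test. Alternatives were the strain block, each strain label left out, calls of score 0.4 or more, assignment within 30 bp, regions beyond sites left out, centred scores, each score component, and other choices of the gap. Promoter sequence was not analysed here.

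The strain number pairs libraries, since both libraries of a number held steps at the same sites. Deviations from group means within a number had correlations of 0.054, 0.3, 0.104 and 0.033 for scores in strain labels 1 to 4. In a simulated data set, 100 nucleosomes among 60146 were changed by 4 SD and another 100 by 2 SD. The SD here is the median over all nucleosomes. The score test recovered 28 of the former and 0 of the latter. For widths over 5263 genes the same design recovered 63 and 25, with 6 false calls. Far fewer features were changed in the simulation than were called in the data, so the recovery in the data may differ.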

Additional observations from a re-analysis of the deposited data

Results flagged for a closer look

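Within the 9 genes, 142 groups of 4 libraries were examined for a library far from the other 3, and 7 (4.9%) held one. Chance gives about 1 in 20. Strain label 2 accounted for 5 of them. In treated cells its nucleosome upstream of CLB1, at -308 bp, scored 0.542 while the others reached at least 0.863, and its dyad lay at -269 bp while the nearest lay at -306 bp. In untreated cells it had the low score of 0.496 at the CLB2 nucleosome at -52 bp, the low CLB1 body score of 0.608 and the high score of 0.840 at the CDC20 +1. The untreated library of strain label 3 had the high score of 0.937 at the SWI5 +1. The untreated library of strain label 4 had the low score of 0.576 at the ALK1 nucleosome at 1503 bp. No explanation of these values was tested.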

How the results depend on the processing

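Of 581 recomputed values for 62 single results, 517 kept direction and side of the threshold, 57 fell below it, 4 passed it and 3 changed sign: the score at 2824 bp in BUD4 with the width component alone (-0.000582), and the widths of CDC20 (18 bp) and SWI5 (-26.75 bp) under the widest gap, which is another gap by construction. Changed scores in the 9 genes numbered 10, 3 with the width component alone, and 0 to 9 when a strain label was left out. Over all nucleosomes they numbered 5038, 1951 with the width component, and 696 to 3735. Shifted dyads in the genes numbered 1, 3 within 30 bp, 0 at a score of 0.4 or more, 0 with regions beyond sites left out (SWI5 drops out), and 0 to 2 when a label was left out. Over all nucleosomes there were 768, 1519 within 30 bp, and 65 to 1075. Changed widths in the genes numbered 2, 0 with the call nearest the start as +1, and 0 to 3 when a label was left out. Over all genes there were 1367, 416 with the nearest call, and 9 to 1636. Gene-body scores over all genes numbered 346, 735 with the height component, 627 centred, 204 with the width component, and 1 to 273. With the replicate block, dyad shifts fell to 0 in the genes and 0 over all nucleosomes (limma, 13462 at an unadjusted p below 0.05), and changed widths to 0 in the genes and 36 over all genes. The block changed no other call than those given beside their results and the CDC5 nucleosome at 1285 bp (adjusted p = 0.0471) and the BUD4 nucleosome at 2369 bp (0.0416), which then passed. The cause of these differences was not tested, and with 3 strain labels fewer libraries enter each fit. Depth per library is unknown.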
